A study of Mus musculus with 2 samples.

Results

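The mir-106b-25 and mir-106a-363 clusters and the lone gene Mir92b were followed in microRNA-seq of embryonic mouse midbrain. These are relatives of the mir-17-92 cluster that lie elsewhere in the genome. The members were taken by symbol. They were 3 genes of mir-106b-25 (Mir106b, Mir93 and Mir25), 6 genes of mir-106a-363 (Mir106a, Mir18b, Mir20b, Mir19b-2, Mir92-2 and Mir363) and Mir92b, so 10 of the 1973 miRNA genes counted. All 10 were detected, meaning 10 or more sense-strand reads in both libraries, as were 411 of the 1973 genes. The members were not chosen by a measured value, though earlier results of these data were known when they were chosen.

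Midbrain of B6NCrl mouse embryos at embryonic day 16.5 gave 2 libraries, which the labels call biological replicates. Each came from healthy male and female embryos pooled, 37 of them for replicate 2 and a number not given in the sources used here for replicate 1. Small RNA inserts below 30 nt were sequenced. As both libraries belonged to 1 group, no treatment or genotype was compared, and the results are levels, shares and differences between the libraries.

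A microRNA is cut from a hairpin precursor and guides Argonaute proteins to mRNAs, which it pairs with mainly through its seed (bases 2 to 8 from the 5′ end). Hairpins of a cluster are transcribed together and then processed one by one, so their mature products need not be equal in amount. The 3 paralogous clusters mir-17-92, mir-106b-25 and mir-106a-363 are known for promoting the cell cycle and the growth of progenitor cells, and members with the miR-17 seed repress the cell cycle inhibitor Cdkn1a. Mir25 and Mir92b carry another seed, that of miR-92a, and miR-92b is known from neural progenitors.

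The guide sequences show which members can share targets and which differ so little that reads may not be told apart. They are RefSeq sequences for assembly GRCm38.p6, written 5′ to 3′ with the seed in capitals. All 10 members had a RefSeq hairpin, and in all 10 its start and end were those of the GENCODE gene. The members fall under 4 seeds. With the seed AAAGUGC of miR-17, the 4 members and their 2 counterparts from mir-17-92 are:

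miR-106b-5p: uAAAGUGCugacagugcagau

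miR-93-5p: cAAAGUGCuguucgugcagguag

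miR-106a-5p: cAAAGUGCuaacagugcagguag

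miR-20b-5p: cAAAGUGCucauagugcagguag

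miR-17-5p: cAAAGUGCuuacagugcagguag

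miR-20a-5p: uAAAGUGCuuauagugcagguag

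Substitutions are given as the member's base, the position counted from 1 at the 5′ end, and the other miRNA's base. miR-106a-5p and miR-17-5p differ by a single one, A10U. miR-20b-5p and miR-20a-5p differ by C1U and C10U. The guides of mir-106b-25 stand farther off, with U1C, G10U and A20G between miR-106b-5p and miR-17-5p, and G10C, U11A and C13A between miR-93-5p and its closest relative miR-20b-5p.

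With the seed AUUGCAC of miR-25 and miR-92, the 4 members are:

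miR-25-3p: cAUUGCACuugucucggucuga

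miR-92a-3p (Mir92-2 and also Mir92-1): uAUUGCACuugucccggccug

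miR-363-3p: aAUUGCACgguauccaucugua

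miR-92b-3p: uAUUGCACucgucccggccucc

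miR-92b-3p differs from miR-92a-3p by C10U and C21G over 21 bases, and miR-25-3p by C1U, U14C and U18C. miR-363-3p shares the seed but little else, with 11 substitutions to miR-92a-3p. The remaining seeds have 1 member each. They are AAGGUGC in miR-18b-5p, which is shown with its counterpart, and GUGCAAA in miR-19b-3p:

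miR-18b-5p: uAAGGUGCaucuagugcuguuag

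miR-18a-5p: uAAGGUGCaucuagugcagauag

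miR-19b-3p (Mir19b-2 and also Mir19b-1): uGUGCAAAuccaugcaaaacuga

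miR-18b-5p and miR-18a-5p differ by U18A and U20A. The guides of Mir19b-2 and Mir92-2 are letter for letter those of Mir19b-1 and Mir92-1 of mir-17-92, and these identities reach past the guide. The hairpins below are printed with the longest run shared by the pair in capitals, since a short read inside it fits both loci:

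Mir19b-2: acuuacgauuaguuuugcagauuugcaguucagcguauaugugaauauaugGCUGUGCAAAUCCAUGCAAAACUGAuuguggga

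Mir19b-1: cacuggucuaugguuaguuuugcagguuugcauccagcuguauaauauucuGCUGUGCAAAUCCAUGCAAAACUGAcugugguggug

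Mir92-2: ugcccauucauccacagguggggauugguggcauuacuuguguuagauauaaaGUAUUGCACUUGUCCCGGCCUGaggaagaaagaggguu

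Mir92-1: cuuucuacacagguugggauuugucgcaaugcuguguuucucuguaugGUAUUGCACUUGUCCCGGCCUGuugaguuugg

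The run is 25 bases for the Mir19b pair and holds all 23 bases of the guide. It is 22 bases for the Mir92 pair and holds all 21. Among the other 8 members the longest run shared with any of the 1005 RefSeq hairpins was 12 to 17 bases, the 17 being between Mir18b and Mir18, and none held a whole guide. Reads mapped to several places made up 35.3% of all reads in replicate 1 and 36.5% in replicate 2 and were listed apart from the genes, so the counts of Mir19b-2, Mir92-2 and their copies are uncertain. How many of those reads came from these loci was not tested.

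In assembly mm10 with GENCODE M21, the 10 members lay on the minus strand. Mir106b (ENSMUSG00000065514.1, chr5:138165737-138165818), Mir93 (ENSMUSG00000065527.1, chr5:138165523-138165610) and Mir25 (ENSMUSG00000065394.1, chr5:138165321-138165404) spanned 498 bases inside Mcm7, which encodes a subunit of the helicase that opens replication origins. They overlapped exons of coding Mcm7 transcripts by 0 bases, and Mir93 and Mir25 lay in an exon of a retained-intron transcript. On chromosome X, the 6 hairpins of mir-106a-363 spanned 875 bases in the order Mir106a (ENSMUSG00000065456.1, chrX:52742503-52742567), Mir18b (ENSMUSG00000077111.2, chrX:52742331-52742413), Mir20b (ENSMUSG00000076041.1, chrX:52742113-52742192), Mir19b-2 (ENSMUSG00000065473.1, chrX:52741983-52742066), Mir92-2 (ENSMUSG00000065613.1, chrX:52741838-52741928) and Mir363 (ENSMUSG00000070106.1, chrX:52741693-52741767). Mir106a overlapped an exon of the non-coding gene Kis2 by 5 bases, and the other 5 lay 150 to 796 bases from Kis2 in no annotated gene of their strand. Mir92b (ENSMUSG00000076255.2, chr3:89227116-89227198) lay in no annotated gene of its strand, 28 bases from Mtx1 on the same strand.

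The libraries held 6151299 sense-strand miRNA reads in replicate 1 and 5312642 in replicate 2, and levels are given as CPM, each gene's reads scaled to a fixed total of these sense reads. With 3 reads as the limit that a count of 0 allows, the floor was 0.488 CPM in replicate 1 and 0.565 in replicate 2. Of the miRNA genes listed as markers of neurons and progenitors, 9 of 11 analysed were detected, with summed levels of 25916 and 24695 CPM in replicates 1 and 2. Mir137 alone gave 15865 and 14350 CPM of these sums, whereas Mir124a-2 had 22 reads in each library and Mir124a-3 had 2 and 4. Any marker reads that mapped to several places, as those of genes with several copies may, are missing from these counts. Low counts of single Mir124a genes thus do not show that their miRNA was low. Summed levels of different lists do not compare amounts of cell types. Markers of endothelium (Mir126a, 23067 and 24810 CPM), blood (4 of 4 detected, 410 and 487 CPM), the oligodendrocyte lineage (3 of 3, 1524 and 1700.5 CPM), epithelium (7 of 7, 1327 and 689 CPM) and liver (Mir122, 74.9 and 55.3 CPM) were present too. Of 5 muscle genes analysed, 1 was detected, and Mir1a-1, Mir133a-1 and Mir133a-2 had 0 reads. As reads that mapped to several places are left out, these counts of 0 do not show that the miRNAs were absent. In whole tissue, fewer cells that make a miRNA and less of it per cell cannot be told apart.

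The mir-106b-25 cluster was the main source of reads among the members. It held 1.92% of sense miRNA reads in replicate 1 and 1.56% in replicate 2 (1.74% ± 0.254, SD, n = 2). Mir92b alone held 0.396% and 0.365% (0.380% ± 0.0223), whereas the 6 genes of mir-106a-363 together held 0.106% and 0.0686% (0.0874% ± 0.0266). mir-106b-25 thus gave 18.0 times as many reads as mir-106a-363 in replicate 1 and 22.7 times as many in replicate 2. The mir-17-92 cluster held 3.32% and 2.54% (2.93% ± 0.553). Of the reads of all 3 clusters, mir-106b-25 held 35.9% and 37.4% and mir-106a-363 1.99% (95% Wilson interval 1.94 to 2.04) and 1.65% (1.59 to 1.70). Any reads of miR-19b-3p and miR-92a-3p that fit both of their loci are missing from mir-17-92 and mir-106a-363. No guide of mir-106b-25 lies whole in a run shared with another hairpin. The part of mir-106b-25 and its lead over mir-106a-363 may thus be too high, and by how much was not tested. Intervals here and below are 95% intervals, Wilson for levels and shares and exact binomial for ratios between genes. They cover counting error only, as reads without molecular identifiers are not independent molecules.

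Within mir-106b-25, Mir93 and Mir106b were level with each other and Mir25 was far below. Mir93 stood at 9402 CPM in replicate 1 and 7944 in replicate 2 (8673 ± 1031, SD, n = 2), rank 22 of the 1973 genes. Mir106b stood at 9352 and 7287 CPM (8319 ± 1461), rank 24. Both encode a guide with the miR-17 seed, and their library ranges overlapped. Mir106b had 0.995 times the reads of Mir93 in replicate 1 (interval 0.983 to 1.01) and 0.917 times in replicate 2 (0.905 to 0.930), so they were level within counting error in replicate 1 only. Mir25, the cluster's member with the miR-25/92 seed, stood at 413 and 343 CPM (378 ± 49.3), rank 141. Mir93 had 22.8 times the reads of Mir25 in replicate 1 (21.9 to 23.7) and 23.1 times in replicate 2 (22.1 to 24.3), so this gap was alike within counting error in both libraries. Mir106b and Mir93 made up 97.8% of the cluster's reads in each.

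Within mir-106a-363, the counted levels did not follow the order along the chromosome. Whether they followed the seed cannot be told, as Mir92-2, which shares the seed of Mir363, has an uncertain count. Mir363, the hairpin farthest downstream and with the miR-25/92 seed, was highest at 416 and 293 CPM (355 ± 87.0, rank 147). Mir106a, the first hairpin, stood at 303 and 179 CPM (241 ± 87.7, rank 164). Mir20b, the third, stood at 228 and 132 CPM (180.03 ± 67.7, rank 186). These 3 held 89.2% of the cluster's reads in replicate 1 and 88.1% in replicate 2. Mir363 led Mir106a 1.37-fold (1.29 to 1.46) in replicate 1 and 1.63-fold (1.51 to 1.77) in replicate 2, and Mir106a led Mir20b 1.33-fold (1.24 to 1.43) and 1.36-fold (1.23 to 1.50).

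The other 3 hairpins of mir-106a-363 were low. Mir92-2 stood at 58.5 and 39.5 CPM (49.0 ± 13.4, rank 251), and Mir18b at 53.6 and 39.2 CPM (46.4 ± 10.2, rank 255). Mir363, which has the same seed as Mir92-2 and lies next to it, had 7.11 times its reads in replicate 1 and 7.41 times in replicate 2. Mir19b-2, a copy of the gene for miR-19b, had 15 reads in replicate 1 and 14 in replicate 2. That is 2.44 CPM (1.48 to 4.02) and 2.64 CPM (1.57 to 4.42), rank 401, above the floor in both libraries but near the limit of 10 reads for detection. For Mir92-2 and Mir19b-2 the limit on shared reads given above holds.

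Mir92b, the single gene outside the clusters, stood at 3961 CPM in replicate 1 and 3646 in replicate 2 (3803 ± 223, rank 50). It was the third of the members and had the smallest SD relative to its mean except for Mir19b-2. Mir92b exceeded Mir25 9.59-fold in replicate 1 (9.20 to 9.99) and 10.6-fold in replicate 2 (10.1 to 11.1).

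**Figure D1:**
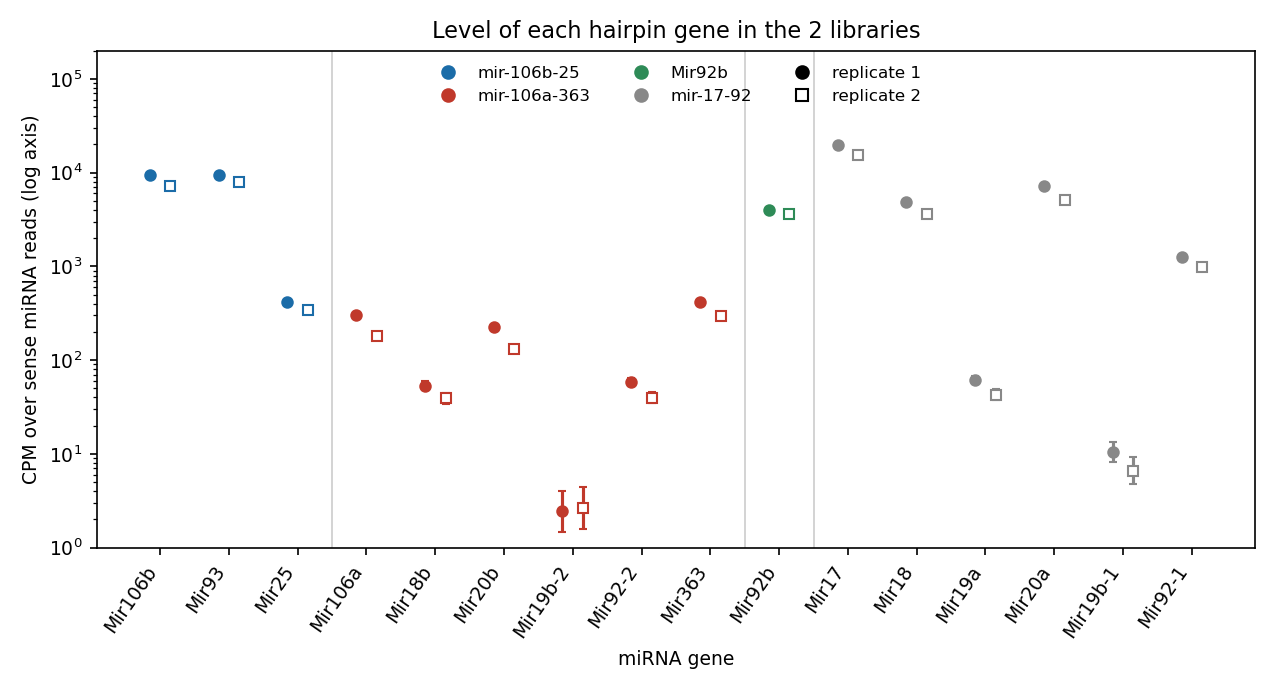
Level of each member and of the 6 mir-17-92 genes in CPM over sense miRNA reads (log axis), filled circles for replicate 1 and open squares for replicate 2, with bars for the 95% Wilson interval where it is larger than the symbol. Mir106b and Mir93 lie at 8319 and 8673 CPM on average, Mir92b lies below them at 3803 CPM, and 5 of the 6 mir-106a-363 genes are higher in replicate 1.

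By mean CPM the order of the members was Mir93, Mir106b, Mir92b, Mir25, Mir363, Mir106a, Mir20b, Mir92-2, Mir18b and Mir19b-2. The library ranges of neighbours overlapped for Mir93 and Mir106b, Mir25 and Mir363, Mir363 and Mir106a, Mir106a and Mir20b, and Mir92-2 and Mir18b. They did not overlap at the other 4 steps, where the fold between means was 2.19 from Mir106b to Mir92b, 10.1 from Mir92b to Mir25, 3.67 from Mir20b to Mir92-2 and 18.3 from Mir18b to Mir19b-2. A read is about 1 mature miRNA, so CPM needs no division by length. Per base of annotated hairpin, the values ran from 101 CPM per base for Mir106b to 0.0302 for Mir19b-2, and 3 pairs of neighbours with overlapping ranges changed places, namely Mir93 with Mir106b, Mir25 with Mir363 and Mir92-2 with Mir18b.

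**Figure D2:**
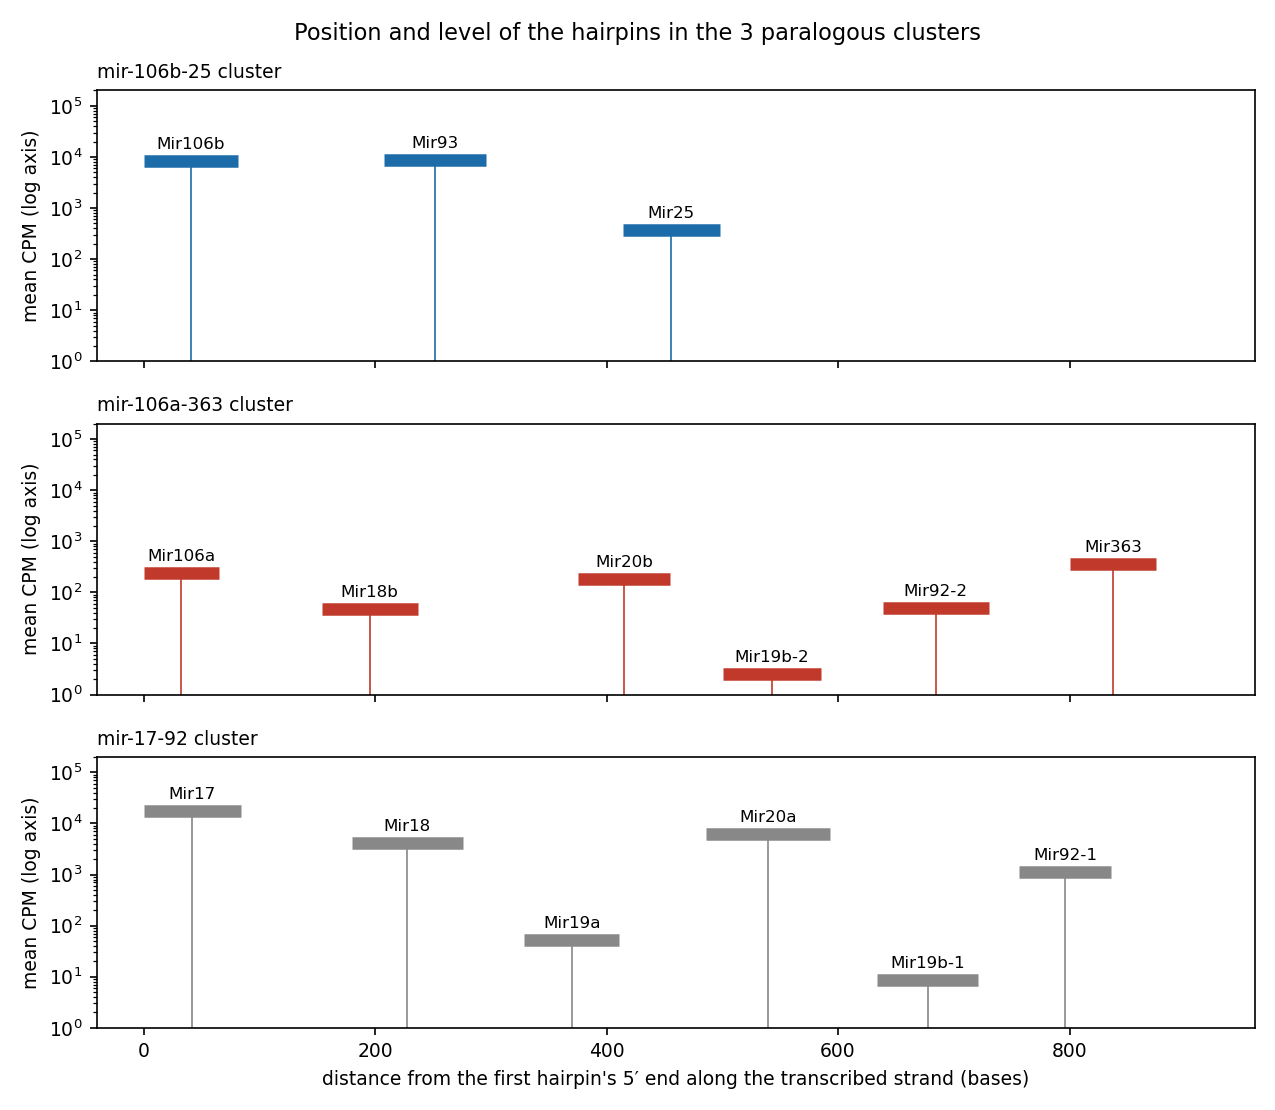
Mean CPM over both libraries (log axis) of each hairpin, drawn as a bar of its annotated length at its distance in bases from the 5′ end of the first hairpin along the transcribed strand, for the 3 clusters. In mir-106b-25 the last hairpin is the lowest, whereas in mir-106a-363 the last hairpin, Mir363, is the highest, and the Mir19b copy is the lowest in both clusters that have one. Counts of the Mir19b and Mir92 copies leave out any reads that fit both loci.

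Against their closest counterparts by name in mir-17-92, which lie in the same order there but with Mir19a in between, the 5 genes of mir-106a-363 that have one were lower in both libraries. Mir18, which encodes miR-18a, had 90.1 times the reads of Mir18b in replicate 1 (80.8 to 101) and 93.2 times in replicate 2 (81.3 to 107). Mir17 had 65.2 times the reads of Mir106a (62.2 to 68.2) and 87.0 times (81.6 to 92.8), and Mir20a 31.8 times those of Mir20b (30.2 to 33.6) and 38.6 times (35.8 to 41.6). The intervals of the libraries overlapped for the Mir18 pair and not for Mir17 with Mir106a or Mir20a with Mir20b, where Mir106a and Mir20b made up a smaller part in replicate 2. Mir92-1 had 21.8 and 24.9 times the reads of Mir92-2, and Mir19b-1 4.27 times (2.40 to 8.06) and 2.50 times (1.31 to 5.03) those of Mir19b-2, with 64 and 35 reads itself. In the Mir92 and Mir19b pairs the guides are identical, so any guide reads that fit both loci are missing. Their ratios may thus not compare the guide output of the loci. Counts of the miR-19 hairpins were low in mir-17-92 as well. There Mir19a, whose guide does not lie whole in a run shared with another hairpin, stood at 61.1 and 42.7 CPM. How far reads that fit both loci lower the counts of Mir19b-1 and Mir19b-2 was not tested.

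Summed by seed, mir-106b-25 supplied much of the miR-17 family. Of reads from hairpins with the miR-17 seed, mir-106b-25 gave 40.5% in replicate 1 and 42.0% in replicate 2, mir-17-92 58.4% and 57.1%, and mir-106a-363 1.15% and 0.860%. Mir6383, the only other analysed gene with that seed, had 0 reads in both libraries. In the miR-18 family, Mir18b gave 1.10% and 1.06%. In the miR-19 family, Mir19b-2 gave 15 of 455 reads (3.30%, interval 2.01 to 5.37) and 14 of 276 (5.07%, 3.05 to 8.33). Any reads of miR-19b-3p that mapped to both of its loci are missing from these counts.

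The miR-25/92 family was supplied from more places, and Mir92b led it among the reads counted. Mir92b gave 62.6% of the family's reads in replicate 1 (62.1 to 63.1) and 66.5% in replicate 2 (66.0 to 67.1). Mir92-1 of mir-17-92 gave 20.2% and 18.0%, Mir25 6.53% and 6.26%, Mir363 6.58% and 5.35%, and Mir92-2 0.925% and 0.721%. Mir32, a gene outside the clusters on chromosome 4 in an intron of Tmem245, gave 3.21% and 3.18% from 203 and 174 CPM. Mir367, a hairpin of the stem cell cluster of the miR-302 genes, had 0 reads in both libraries. Mir92b had 3.11 times the reads of Mir92-1 in replicate 1 (3.03 to 3.19) and 3.70 times in replicate 2 (3.59 to 3.82). Any reads of miR-92a-3p that mapped to both of its loci are missing from Mir92-1 and Mir92-2. How far this lowers their part of the family, and whether Mir92b would still lead with them, was not tested.

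**Figure D3:**
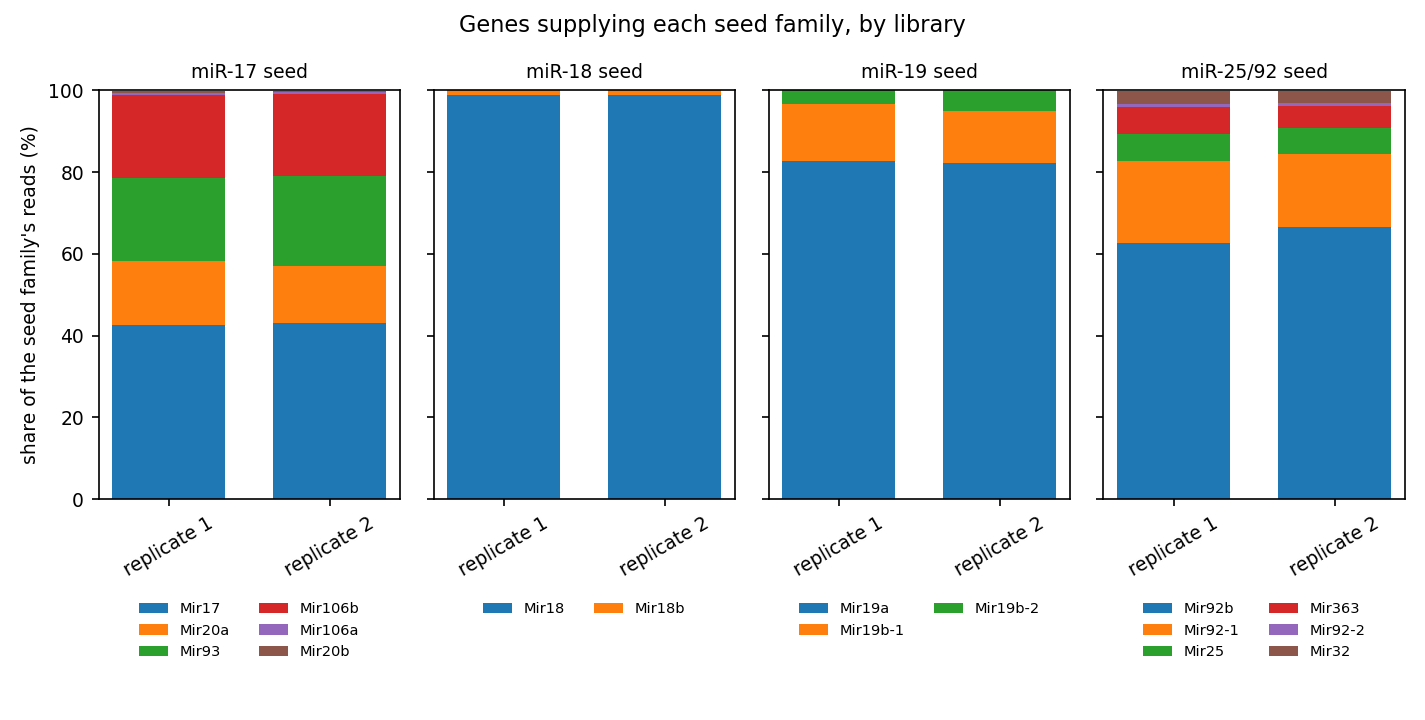
Share in percent of the reads of each seed family given by each gene, as stacked bars that add up to the whole family in each library. Mir93 and Mir106b together fill 40.5% and 42.0% of the miR-17 family, and Mir18b and Mir19b-2 are thin slices. Mir92b fills more than all other genes of the miR-25/92 family together in both libraries. Any miR-92a-3p or miR-19b-3p reads that fit both of their loci are left out.

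Between the libraries, 9 of the 10 members were higher in replicate 1 and none was called higher in replicate 2. Each gene's reads were compared by a two-sided exact binomial test against the ratio of summed sense reads, with Benjamini-Hochberg adjustment over the 411 detected genes at a threshold of 0.05. Of those 411 genes, 120 (29.2%) were called higher in replicate 1 and 75 (18.2%) in replicate 2. The test compares these libraries and covers counting error only. With the spread between animals unknown to it, a call does not show that embryos differ. Calls were 120 against 75 (61.5% higher in replicate 1), but 95 against 90 (51.4%) with TMM or RLE scaling in edgeR, under which 9 members were called higher in replicate 1.

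The differences were largest for Mir20b and Mir106a of mir-106a-363. On the log2 scale of replicate 2 over replicate 1, Mir20b was at -0.79 (adjusted p = 1.3e-32, exact binomial test) and Mir106a at -0.76 (adjusted p = 1.6e-40). Mir92-2 was at -0.56 (adjusted p = 1.8e-05), Mir363 at -0.51 (adjusted p = 2.0e-27) and Mir18b at -0.45 (adjusted p = 0.00108). Mir19b-2, the only member with a ratio above 0, did not pass, at 0.12 (exact binomial p = 0.854, adjusted p = 0.926). Of the 6 genes of this cluster, 5 were thus called higher in replicate 1, as were 5 of the 6 genes of mir-17-92. Among all 411 detected genes, 120 (29.2%) were.

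The members of mir-106b-25 differed less, with Mir106b at -0.36, Mir25 at -0.27 (adjusted p = 6.6e-09) and Mir93 at -0.24 (adjusted p = 2.2e-152). Mir92b was at -0.12 (adjusted p = 4.0e-17), a difference of 1.09-fold that passed on the strength of 24364 and 19369 reads. The median log2 ratio was -0.41 over the 10 members, -0.27 over mir-106b-25 and -0.54 over mir-106a-363, against -0.06 over all 411 detected genes, of which 246 were below 0 and 165 above. Under TMM the medians were -0.36 over the members and -0.007 over all detected genes. In mir-17-92 the median was -0.46, and 5 of 6 genes were called higher in replicate 1. Mir19b-1 was at -0.65 (adjusted p = 0.069) and was not called. In the same direction, the summed level of the 7 epithelial marker genes was 1327 CPM in replicate 1 and 689 in replicate 2, and its part in the members' difference was not tested.

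When a spread between replicates was assumed, few of these calls remained. In edgeR, with the exact test and a biological coefficient of variation (BCV) set to 0.1, 7 of 411 genes (1.70%) were called higher in replicate 1, and 2 of them were members, Mir20b (adjusted p = 0.014) and Mir106a (adjusted p = 0.017). At a BCV of 0.2, 5 of 411 genes (1.22%) were called higher in replicate 1 and 0 were members, with 0 members at an unadjusted p under 0.05 and a lowest adjusted p of 1. With 1 library against 1, that count of 0 does not show that the levels were alike.

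**Figure D4:**
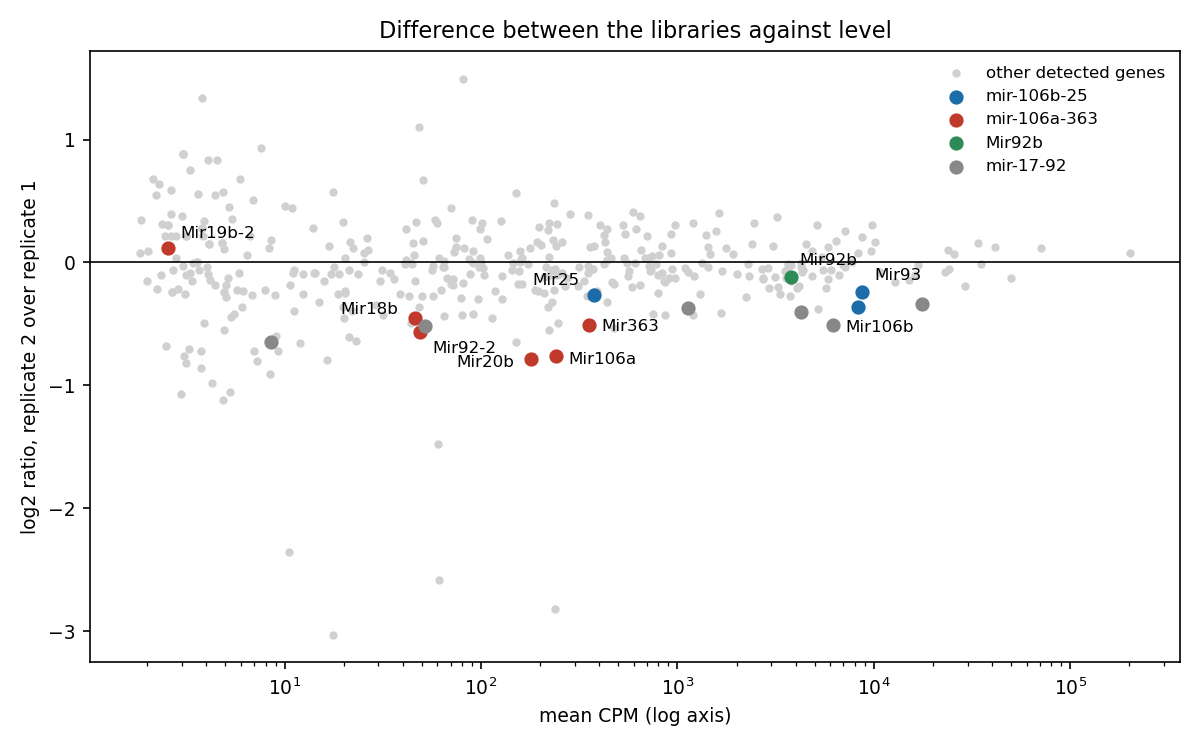
Log2 ratio of replicate 2 over replicate 1 against mean CPM (log axis) for the 411 detected genes, with the members and the 6 mir-17-92 genes in colour or dark grey. Of the members, only Mir19b-2 lies above 0, and Mir20b and Mir106a lie lowest at -0.79 and -0.76.

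The make-up of the clusters was similar in the 2 libraries but not the same within counting error. Intervals of the shares did not overlap between libraries for Mir106b, Mir93 and Mir363 (38.0 to 40.4 against 41.1 to 44.3). They overlapped for the other genes of the 2 clusters. Mir106b made up 48.8% of the mir-106b-25 reads in replicate 1 and 46.8% in replicate 2, Mir93 49.1% and 51.0%, and Mir25 2.16% and 2.20%. In mir-106a-363, Mir363 made up 39.2% and 42.7%, Mir106a 28.6% and 26.2%, Mir20b 21.5% and 19.3%, Mir92-2 5.51% and 5.76%, Mir18b 5.05% and 5.71%, and Mir19b-2 0.230% and 0.384%. Whole clusters differed by 1.23-fold for mir-106b-25, 1.55-fold for mir-106a-363 and 1.31-fold for mir-17-92, each higher in replicate 1.

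Genes closest in level were sought by the distance in log2(CPM + 1) over the 2 libraries among 401 detected genes that are not members. Nearest to Mir106b were Mir342 (7705 and 7712 CPM, distance 0.29) and Mir382 (8102 and 8560 CPM, 0.31), neither of which was lower in replicate 2 as Mir106b was. Nearest to Mir106a were Mir302a (289 and 205 CPM, 0.20) and Mir494 (263 and 180.1 CPM, 0.20), which shared its direction. Nearest to Mir92b were Mir872 (3974 and 3584 CPM, 0.025) and Mir324 (3799 and 3738 CPM, 0.070). With 2 libraries, such closeness describes level only.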

How the data were processed

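Per the labels, total RNA of 2 pools of embryonic midbrain was made into libraries of inserts below 30 nt. The authors deposited, for each library, a table of raw read counts over miRNA genes, made on mm10 with GENCODE M4 per the text files deposited beside the tables. Aligner, counting program and adapter trimming are not given in the sources used here. Rows that name no gene (reads unmapped, 15.6% and 15.2%, or mapped to several places, 35.3% and 36.5%, among them) stayed out of totals and tests. Sense-strand counts were 45.1% and 44.2% of 13638577 and 12027645 reads in replicates 1 and 2.

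Gene names and positions came from GENCODE M21 on the same assembly, in which 1894 of 1973 identifiers matched and 79 did not. Counts cover a whole hairpin, so its arms are merged. The guide arm was named from common knowledge, and its share of the reads was not tested. CPM was taken over summed sense counts, and 0.5 reads were added to each count for log2 ratios. Means are given with the SD over 2 libraries. The libraries were not copies of each other, with a chi-square of 85.8 per degree of freedom over detected genes.

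The named genes were the members, the mir-17-92 genes, other genes with a member's seed, and the nearest 2 genes in level to Mir106b, Mir106a and Mir92b. The members and lists were chosen with earlier results of these data known. Alternatives were other scalings, strand, minimum reads, reads added, denominator, length and each library alone. The binomial and edgeR tests were tested on simulated data with genes changed by a known fold, of which edgeR at a BCV of 0.2 called none, so its lack of calls says nothing about the members. Tools were R 4.3.3, edgeR 4.0.16, Python 3.11.15, numpy 2.4.6, scipy 1.17.1, pandas 2.3.3 and matplotlib 3.10.9. Genes of the marker lists for which no row was matched (Mir9-1, Mir142 and Mir1a-2) were not analysed here.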

Additional observations from a re-analysis of the deposited data

Results flagged for a closer look

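Reads on the strand opposite to Mir92b, which no comparison used, numbered 10 in replicate 1 and 0 in replicate 2, where a count of 0 allows up to 3 reads. The other 9 members had 0 opposite-strand reads in both libraries.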

How the results depend on the processing

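With reads mapped to several places added to the denominator, the mean shares were 0.964% for mir-106b-25, 0.0486% for mir-106a-363, 0.211% for Mir92b and 1.22% for all members, as more reads were counted in all. Of the 9 members that the binomial test called higher in replicate 1, 2 were called by edgeR at a fixed BCV of 0.1 and 0 at a BCV of 0.2, where a spread between replicates was assumed. Each of the 10 log2 ratios kept its sign in every alternative that gave it a value. Scaled to all reads of the table, the 10 levels were lower by construction. With TMM or RLE scaling, without Mir99a in the total, or with at least 1 read in either library, 9 members were called higher in replicate 1. Among all genes tested, 95 of 411 were called so with TMM or RLE. The counts were 108 of 411 without Mir99a and 119 of 750 with at least 1 read. With a minimum of 50 reads, which dropped Mir19b-2, the only member not called, 9 of the 9 members left were called. Among all genes tested at that minimum, 112 of 309 were called higher in replicate 1. Without Mir19b-2 and Mir92-2, whose guides lie in runs shared with another hairpin, 8 of 8 were called, an alternative chosen after seeing the data. Its outcome was fixed in advance, as Mir19b-2 was the only member not called, so it adds no support. Per hairpin base, 4 of 10 members kept their place in the order, and without each replicate 8 to 10 did. Mir25 and Mir363 change places without replicate 2. Depth limits Mir19b-2, with 15 and 14 reads. No paired analysis was possible because there was 1 group.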
